A study of Rattus norvegicus with 18 samples.

Results

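Chlorothalonil-exposed NRK-52E cells were set against vehicle-treated cells after 24 h, across every gene that could be tested. The comparison holds 6 of the 18 arrays of the series, 3 of cells given 1.1 µM chlorothalonil in 0.1% DMSO and 3 of cells given 0.1% DMSO alone, chosen by the treatment and time in their titles. NRK-52E is an established epithelial line labelled as rat kidney proximal tubule, of the Osborne-Mendel strain, and the cells were confluent when exposed. The labels describe the dose as the 10% inhibitory concentration at 72 h, and chlorothalonil and DMSO arrays were also made at 6 h and 72 h. All arrays come from 1 cell line and 1 dose. Titles number the 3 arrays of each group as biological replicates, from 3 studies, without saying how the cultures were kept apart. The p-values therefore measure the spread between arrays, which the gene tests pool over the 6 groups of the series.

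Chlorothalonil is a chlorinated aromatic fungicide that reacts with thiol groups, those of glutathione and of protein cysteines among them. Cells answer damaged proteins with HSF1, which drives chaperone genes, and answer electrophiles and oxidants with NRF2, which drives genes of glutathione and thioredoxin use. A further branch, the integrated stress response, phosphorylates eIF2α and works through the factors ATF4, CHOP (Ddit3) and ATF3. Sterol and fatty acid enzymes are under SREBP factors, which leave the endoplasmic reticulum when sterol is scarce. The proximal tubule reabsorbs most of the solutes of the renal filtrate and takes up many toxicants.

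The deposited values are log2 levels, and a log2 difference of 1 is a 2-fold change. A log2 change is given as chlorothalonil minus DMSO at 24 h with its standard error (SE, n = 3 arrays per arm), also written after ±. Rose and fell are used of genes called by limma at a Benjamini-Hochberg adjusted p under 0.05 over all 9149 genes tested. A gene is called at background in an arm when its 3 arrays there all lie at or below log2 4; its change is then a bound, the brighter arm's mean against log2 4.

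Arrays of a group correlated at 0.993 to 0.997 and arrays of the opposite arms at 24 h at 0.924 to 0.941. Poly-A transcripts, which are spiked into the RNA, averaged log2 11.19, 10.59 and 10.80 in chlorothalonil arrays, against 8.97, 10.11 and 10.28 in DMSO arrays. The arms do not overlap, and the difference of 1.07 has an exact two-sided permutation p of 0.1, the smallest that 3 arrays against 3 can give. When each array is scaled to these transcripts, the median log2 change of all genes moves to −1.02 from 0.057 on the deposited scale, so every change below is relative to the bulk of the transcripts on its array, and the medians of lists with at least 5 tested genes are also given on the poly-A scale. Spiked hybridization controls averaged 11.77 in chlorothalonil arrays and 11.64 in DMSO arrays (exact two-sided permutation p = 0.3). The actin 3′ minus 5′ control difference, a sign of RNA integrity, was 1.11 ± 0.066 in chlorothalonil arrays and 1.27 ± 0.046 in DMSO arrays (SD, n = 3, exact two-sided permutation p = 0.1). The same difference for the Gapdh control was −0.22 ± 0.037 in chlorothalonil arrays and −0.23 ± 0.0027 in DMSO arrays (SD, n = 3, exact two-sided permutation p = 0.8). The part of RNA integrity in the results was not tested.

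Of the 9149 genes, 6418 were called (70.1%): 3575 rose (39.1%) and 2843 fell (31.1%). With so many calls, a call alone sets few genes apart, and sizes are given throughout. A change of 2-fold or more was called for 968 genes that rose (10.6%) and 741 that fell (8.10%), and one of 4-fold or more for 183 (2.0%) and 125 (1.37%). Regardless of the call, the 3 chlorothalonil arrays all lay above the 3 DMSO arrays for 3699 genes (40.4%) and all below for 2976 (32.5%). The middle 90% of the genes changed by −1.24 to 1.43 on the log2 scale. Genes at low levels were called less often and changed more widely: in the lowest 25% by mean level 55.8% were called and 27.0% changed by 2-fold or more, against 76.6% and 11.9% in the highest 25%.

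**Figure D1:**
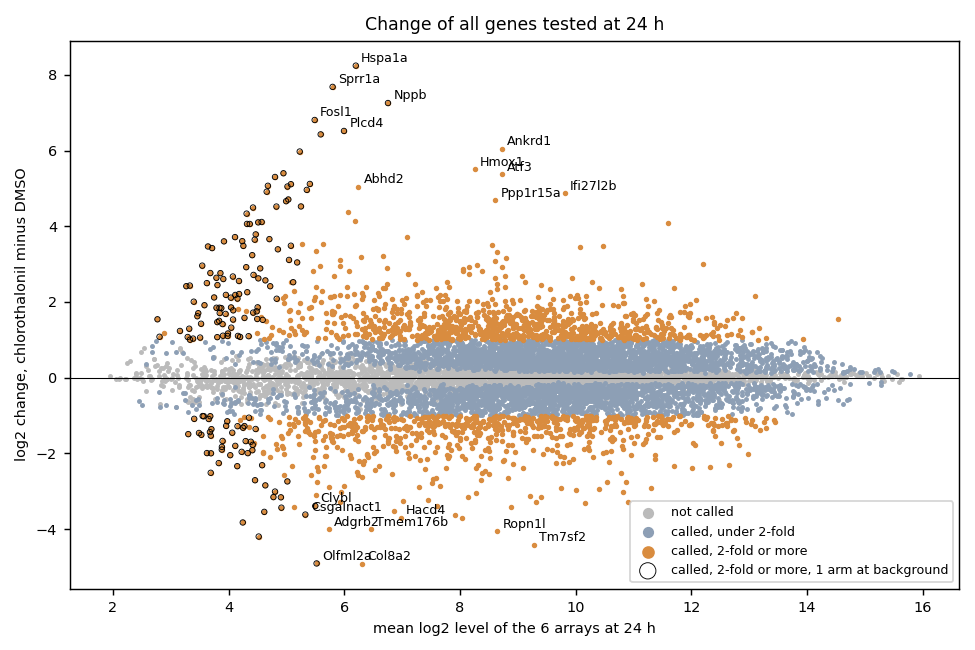
Each point is 1 of the 9149 genes, with the mean log2 level of the 6 arrays at 24 h on the horizontal axis and the log2 change, chlorothalonil minus DMSO, on the vertical axis. Grey points were not called, blue were called under 2-fold and orange at 2-fold or more; circled points have 1 arm at background, so their plotted height is a fitted value that depends on the background step. Changes reach 6.05 for Ankrd1 and −4.91 for Col8a2 among genes above background in both arms.

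Among genes measured above background in both arms, the highest changes were those of Ankrd1, Hmox1 and Atf3. Ankrd1, an ankyrin repeat cofactor known from stretched muscle and as a target of YAP, lay at 11.64, 11.95 and 11.66 in chlorothalonil arrays, against 5.50, 6.62 and 4.98 in DMSO arrays (log2 change 6.05, SE 0.31, adjusted p = 2.6e-10). The arms are far apart, and DMSO replicate 2 is the highest of its arm. Hmox1, which degrades heme and is a target of NRF2, lay at 11.33, 10.75 and 10.95 in chlorothalonil arrays, against 5.65, 5.56 and 5.29 in DMSO arrays (log2 change 5.51, SE 0.14, adjusted p = 2.08e-13). Atf3, a stress-induced transcription factor, lay at 11.62, 11.17 and 11.44 in chlorothalonil arrays, against 5.80, 6.76 and 5.55 in DMSO arrays (log2 change 5.38, SE 0.23, adjusted p = 5.23e-11). Ppp1r15a, the GADD34 subunit that returns phosphorylated eIF2α to its resting state, lay at 11.24, 10.89 and 10.71 in chlorothalonil arrays, against 6.58, 6.42 and 5.79 in DMSO arrays (log2 change 4.68, SE 0.23, adjusted p = 1.41e-10). In all of these the chlorothalonil arrays lie close together and clear of the DMSO arrays.

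Zfand2a, an arsenite-inducible protein that binds proteasomes, lay at 13.59, 13.65 and 13.64 in chlorothalonil arrays, against 9.36, 9.76 and 9.54 in DMSO arrays (log2 change 4.07, SE 0.13). Ifi27l2b, of a family of interferon-inducible genes, lay at 12.38, 12.22 and 12.14 in chlorothalonil arrays, against 7.39, 7.62 and 7.13 in DMSO arrays (log2 change 4.87, SE 0.16). Bcat1, which transfers the amino group of branched-chain amino acids in the cytosol, lay at 8.56, 8.15 and 8.07 in chlorothalonil arrays, against 4.80, 4.32 and 3.22 in DMSO arrays (log2 change 4.14, SE 0.28). DMSO replicates of Bcat1 are spread on both sides of log2 4, so its fold rests on values near background. The same holds for Abhd2, a serine hydrolase, at 8.91, 9.0 and 8.37 in chlorothalonil arrays, against 4.12, 4.01 and 3.05 in DMSO arrays, and for Slc17a6, the vesicular glutamate transporter known from neurons, at 8.20, 8.20 and 8.39 in chlorothalonil arrays, against 3.88, 4.45 and 3.32 in DMSO arrays. H3c1, a histone H3 gene of a multicopy family whose copies share sequence, had a log2 change of 3.72 ± 0.32. Tmem71 changed by 3.54 ± 0.41 and Lcp1, an actin-bundling protein best known from leukocytes, by 3.52 ± 0.38. DMSO arrays lay at 3.63, 3.87 and 4.10 for Tmem71 and 3.0, 4.53 and 2.99 for Lcp1, so both folds rest on values near background.

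The lowest changes were those of Col8a2, Tm7sf2 and Ropn1l. Col8a2, a chain of collagen VIII, lay at 3.82, 3.59 and 4.13 in chlorothalonil arrays, against 8.97, 8.66 and 8.65 in DMSO arrays (log2 change −4.91, SE 0.34, adjusted p = 7.08e-09). The chlorothalonil arrays straddle log2 4 while all DMSO arrays are high. Tm7sf2, a sterol reductase of cholesterol synthesis, lay at 6.78, 7.27 and 7.16 in chlorothalonil arrays, against 11.46, 11.60 and 11.41 in DMSO arrays (log2 change −4.42, SE 0.32, adjusted p = 9.52e-09). Ropn1l, known from the sperm tail, lay at 6.0, 6.60 and 7.25 in chlorothalonil arrays, against 10.52, 10.57 and 10.94 in DMSO arrays (log2 change −4.06, SE 0.30, adjusted p = 1.46e-08). Tmem176b and Tmem176a, neighbouring genes of membrane proteins studied in immune cells, changed by −4.01 ± 0.32 and −3.42 ± 0.34. Chlorothalonil arrays lay at 4.23, 4.86 and 4.29 for Tmem176b and 3.17, 3.05 and 4.06 for Tmem176a, so both folds rest on values near background.

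Adgrb2, an adhesion receptor, changed by −4.01 ± 0.20, and Sema3a, a secreted axon guidance factor, by −3.40 ± 0.49. Adgrb2 lay at 3.62, 3.35 and 4.22 in chlorothalonil arrays, so its fold too rests on values near background. Lipid enzymes in this group were Fads2, the delta-6 desaturase (−3.41 ± 0.19), and Hacd4, of the fatty acid elongation dehydratases (−3.70 ± 0.18). Pimreg, a mitotic regulator, fell (−3.70 ± 0.19), as did the kinesin Kif26b (−3.64 ± 0.28, other probe sets −3.73 to −0.45) and Aldoc, the aldolase C of glycolysis (−3.52 ± 0.31).

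**Figure D2:**
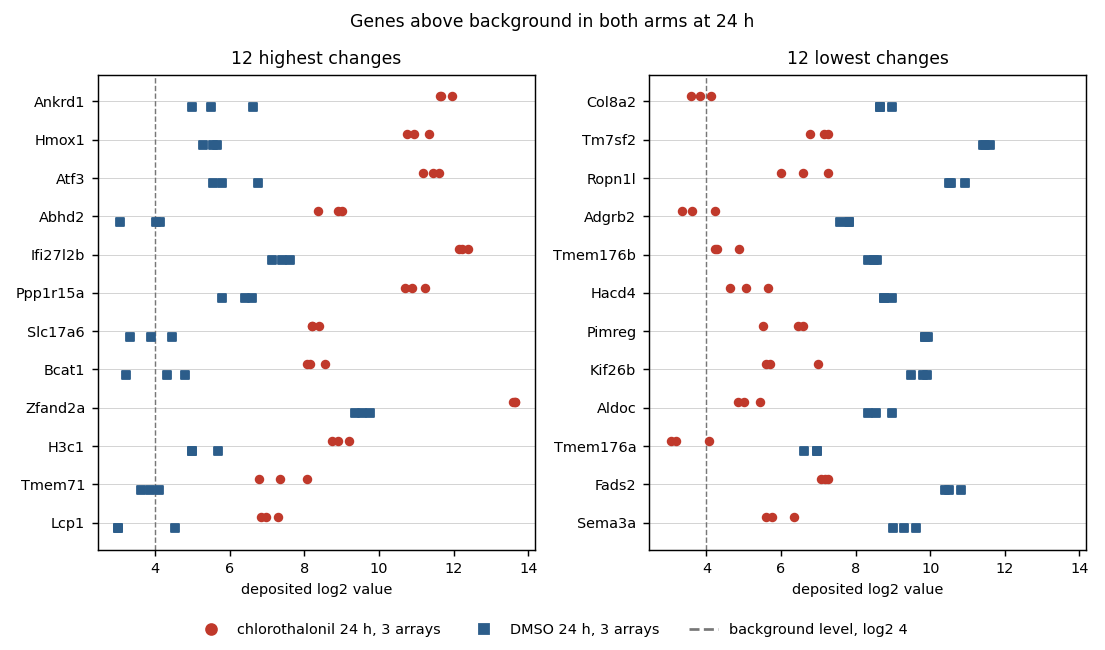
Deposited log2 values of the 12 genes with the highest (left) and the 12 with the lowest (right) change. They were taken from called genes with at least 1 array above log2 4 in each arm. Red circles are the 3 chlorothalonil arrays, blue squares the 3 DMSO arrays at 24 h, and the dashed line is log2 4. The arms are apart in every gene shown, as the rule for these genes requires.

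In 90 called genes all DMSO arrays lay at background and all chlorothalonil arrays above it, and in 48 the reverse held. Counting also genes whose brighter arm crosses log2 4, calls with DMSO at background made up 1.26% of all genes and calls with chlorothalonil at background 0.710%. In a further 112 genes (1.22%) both arms lay at background, and no fold is given for them. Nppb, which encodes the natriuretic peptide BNP, lay at 10.45, 10.31 and 10.40 in chlorothalonil arrays, against 3.22, 3.30 and 2.87 in DMSO arrays, a rise of at least 83.5-fold (adjusted p = 6.99e-14). Hspa1a, the inducible HSP70, lay at 10.77, 10.09 and 10.11 in chlorothalonil arrays, against 2.04, 2.06 and 2.13 in DMSO arrays, at least 80.0-fold higher (adjusted p = 2.4e-11); its paralog is near identical, so the probes can read both. Sprr1a, a small proline-rich protein of the cornified envelope, lay at 9.67, 9.86 and 9.39 in chlorothalonil arrays, against 1.93, 1.95 and 2.0 in DMSO arrays, at least 49.9-fold higher (adjusted p = 6.73e-12). The DMSO arrays of these 3 genes all lie well below log2 4, and the chlorothalonil arrays far above it.

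Smaller bounds of the same kind were found for Plcd4, a phospholipase C (at least 38.2-fold higher), Fosl1, a subunit of the AP-1 factor (at least 29.7-fold higher), and Serpinb2, the plasminogen activator inhibitor PAI-2 (at least 28.0-fold higher). They were also found for Hist4h4, a histone H4 gene (at least 18.6-fold higher), Fam167a (at least 15.6-fold higher), Tchh, the hair follicle protein trichohyalin (at least 14.3-fold higher), and Sdcbp2, the scaffold syntenin-2 (at least 12.5-fold higher). Of the 90 genes, 57 had also risen at 6 h, when 27.8% of all genes were called higher and 59.6% in either direction (64.3% in either direction at 72 h). In 50 the DMSO arrays lay at background at 6 h and 72 h too. At 72 h the chlorothalonil arrays of 44 were at background. Nppb was not among the genes silent in vehicle at 6 h: its log2 level was then 11.44 ± 0.13 in chlorothalonil arrays and 10.18 ± 0.16 in DMSO arrays (SD, n = 3). Plcd4 (7.84 ± 0.31), Fam167a (7.04 ± 0.079) and Serpinb2 (6.42 ± 0.22) were above background in DMSO arrays at 6 h too. Fosl1 was near it (4.05 ± 1.18), and Hspa1a, Sprr1a, Hist4h4, Tchh and Sdcbp2 were at background there.

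Among the 48 genes lost to background, Olfml2a, a secreted olfactomedin-like protein, lay at 3.04, 2.78 and 3.39 in chlorothalonil arrays, against 8.29, 7.81 and 7.83 in DMSO arrays, at least 15.7-fold lower (adjusted p = 1.05e-12). Clybl, a mitochondrial citramalyl-CoA lyase, was at least 9.16-fold lower, and Csgalnact1, which starts chondroitin sulfate chains, at least 8.80-fold lower. Scd, the stearoyl-CoA desaturase, lay at 2.39, 2.41 and 2.46 in chlorothalonil arrays, against 6.51, 6.73 and 6.62 in DMSO arrays (at least 6.15-fold lower). Its DMSO arrays at 24 h are the exception: at 6 h and 72 h Scd was at background in both arms, as was Izumo4. The others were Sult1c2, a sulfotransferase (at least 6.20-fold lower), Prickle2, of planar cell polarity (at least 5.60-fold lower), Izumo4 (at least 5.25-fold lower), Omd, a bone proteoglycan (at least 5.23-fold lower), Megf6 (at least 5.11-fold lower) and Etl4 (at least 4.96-fold lower). In 35 of the 48 the DMSO arrays at 6 h were at background too, and in 11 the chlorothalonil arrays at 72 h were.

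**Figure D3:**
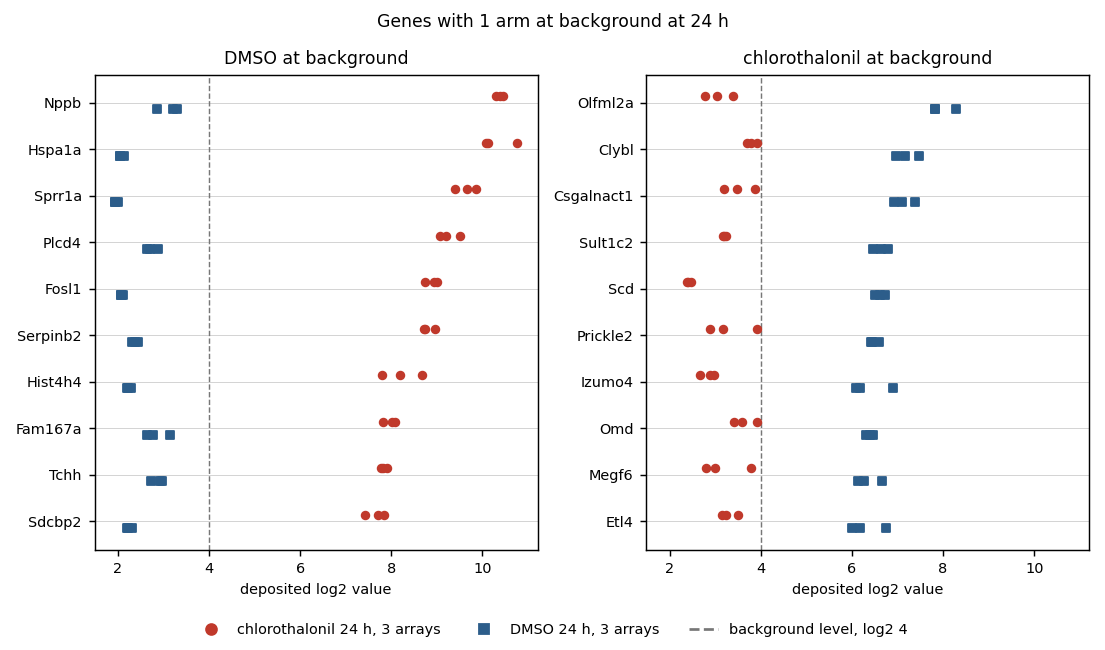
Deposited log2 values of the 10 genes with the highest bound among genes whose DMSO arrays were at background (left) and the 10 among genes whose chlorothalonil arrays were (right). Red circles are the 3 chlorothalonil arrays and blue squares the 3 DMSO arrays at 24 h; the dashed line is log2 4, against which Nppb rose at least 83.5-fold and Olfml2a fell at least 15.7-fold.

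The genes were further described by 56 lists of pathway, organelle and marker genes and 9 families picked by symbol. Each count is read against the 39.1% of all genes that rose and the 31.1% that fell, and each median against 0.057 on the deposited and −1.02 on the poly-A scale. The members named for a list are those with the smallest p, which need not be those with the largest change, and some fixed genes. On the poly-A scale the median of every list with at least 5 tested genes was negative, so the rises of lists below are rises relative to the other transcripts.

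Most cytosolic protein folding genes rose on the deposited scale. Of the cytosolic chaperones, 30 of 33 tested genes rose and 2 fell (37 listed, median 0.86, poly-A −0.21). Hsph1, a nucleotide exchange factor of the HSP70 system, lay at 13.89, 13.67 and 13.56 in chlorothalonil arrays, against 10.61, 10.80 and 10.70 in DMSO arrays (log2 change 3.0, SE 0.080, adjusted p = 2.57e-13). The small heat shock protein Hspb1 rose by 2.15 ± 0.069 and the HSP40 Dnajb1 by 2.04 ± 0.082. Of the chaperonin and prefoldin subunits, which fold actin and tubulin, 16 of 19 tested genes rose and 0 fell (20 listed, median 0.55, poly-A −0.52), among them Pfdn2 (1.07 ± 0.055), Tcp1 (1.27 ± 0.074) and Cct8 (0.78 ± 0.051). Pfdn2 and Cct8 turned to −0.0057 and −0.29 on the poly-A scale. ER chaperones and unfolded protein response genes went the other way: 6 of 27 tested genes rose and 18 fell (27 listed, median −0.35, poly-A −1.43). The members that rose with the smallest p were Ppp1r15a, Ddit3 (1.98 ± 0.095) and Dnajb9, an ER co-chaperone (1.34 ± 0.081), while the abundant ER HSP70 Hspa5 fell by only a little (−0.13 ± 0.049, adjusted p = 0.0246).

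Mitochondrial upkeep followed the cytosolic pattern on the deposited scale. Of the mitochondrial chaperones and proteases, 15 of 19 tested genes rose and 3 fell (20 listed, median 0.72, poly-A −0.35), with Hspa9, the matrix HSP70 (1.52 ± 0.069), its exchange factor Grpel1 (1.20 ± 0.075) and Hspe1 (1.02 ± 0.052) among those that rose. Of the import machinery, 17 of 19 tested genes rose and 1 fell (21 listed, median 0.77, poly-A −0.30); Timm10, a small chaperone of the intermembrane space, lay at 11.29, 11.35 and 11.14 in chlorothalonil arrays, against 9.15, 9.13 and 9.01 in DMSO arrays (log2 change 2.17, SE 0.087). Timm17a (0.93 ± 0.057) and Timm50 (0.91 ± 0.057) of the TIM23 channel rose by less. Of the mitochondrial ribosome, 32 of 33 tested genes rose and 0 fell (37 listed, median 0.67, poly-A −0.41), for example Mrps18b (1.41 ± 0.085), Mrps28 (1.30 ± 0.070) and Mrps7 (1.21 ± 0.062). Mitochondrial enzymes of the TCA cycle were mixed: 10 of 19 tested genes rose and 4 fell (24 listed, median 0.23, poly-A −0.85), with Pdhx (1.65 ± 0.088) and Idh3b (1.01 ± 0.069) up and Pdha1 (−0.85 ± 0.057) down.

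Genes that make and run the translation machinery also moved upward on the deposited scale. Among aminoacyl-tRNA synthetases, which charge tRNAs, 20 of 21 tested genes rose and 1 fell (22 listed, median 0.97, poly-A −0.11). Yars1 lay at 12.18, 12.04 and 11.95 in chlorothalonil arrays, against 10.72, 10.77 and 10.79 in DMSO arrays (log2 change 1.29, SE 0.070, adjusted p = 4.88e-10), Sars1 changed by 1.26 ± 0.058 and Farsb by 1.21 ± 0.069. Among initiation factors, 22 of 26 tested genes rose and 0 fell (30 listed, median 0.72, poly-A −0.35), with Eif1ad (1.89 ± 0.095), Eif6, which keeps the large ribosomal subunit apart until it is mature (1.69 ± 0.081), and Eif2s1, which encodes eIF2α itself (1.06 ± 0.052). Of genes of RNA polymerases I and III, 20 of 24 tested genes rose and 1 fell (27 listed, median 0.59, poly-A −0.49). Polr1b, the second largest subunit of polymerase I, lay at 7.89, 8.02 and 7.65 in chlorothalonil arrays, against 5.49, 5.72 and 5.23 in DMSO arrays (log2 change 2.37, SE 0.14), and Polr1e (2.17 ± 0.089) and Taf1d (1.72 ± 0.12) rose with it. A control probe set for 5S ribosomal RNA, a product of polymerase III, stood at 13.13, 12.91 and 13.03 in chlorothalonil arrays, against 7.74, 7.85 and 6.50 in DMSO arrays. Its log2 change was 5.66 (SE 0.38, limma adjusted p = 8.75e-09 and exact two-sided permutation p = 0.1, the smallest possible). This probe set reads an RNA without a poly-A tail, so its value is not taken as the amount of 5S RNA in the cells. The cause of the difference was not tested.

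Nuclear RNA handling shared the direction on that scale. Of nuclear pore and import genes, 29 of 41 tested genes rose and 2 fell (43 listed, median 0.48, poly-A −0.60), with the importin Kpna6 (2.23 ± 0.13) and the pore proteins Nup43 (1.62 ± 0.099) and Nup54 (1.11 ± 0.070). Of the DDX and DHX helicases, 30 of 46 tested genes rose and 4 fell (47 listed, median 0.49, poly-A −0.58); Ddx39a, of mRNA export, changed by 2.48 ± 0.099, and Ddx18 and Ddx27, of ribosome assembly, by 1.43 ± 0.084 and 1.26 ± 0.077. Of RNA-binding proteins of the RBM, HNRNP and SRSF names, 37 of 54 tested genes rose and 7 fell (62 listed, median 0.33, poly-A −0.75). Of exosome and decay genes, 15 of 26 tested genes rose and 7 fell (34 listed, median 0.46, poly-A −0.61). Exosc7 of the exosome rose (0.90 ± 0.059) and so did Smg5 of nonsense-mediated decay (1.59 ± 0.14), while the 5′ exonuclease Xrn1 fell (−1.25 ± 0.10), though its other probe sets spanned −0.91 to 0.14.

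Protein removal was described by 3 lists. Of proteasome genes, 35 of 40 tested genes rose and 4 fell (42 listed, median 0.76, poly-A −0.31), with the regulatory subunits Psmd13 (1.55 ± 0.063) and Psmd3 (1.54 ± 0.072) and the assembly chaperone Psmd9 (1.81 ± 0.093). Of ubiquitin conjugation and removal genes, 20 of 37 tested genes rose and 6 fell (45 listed, median 0.37, poly-A −0.71), with Ufd1, which hands substrates to VCP (1.40 ± 0.087), and the deubiquitinases Uchl3 (1.11 ± 0.060) and Uchl5 (0.90 ± 0.052). Lysosome and autophagy genes were split: 13 of 32 tested genes rose and 9 fell (43 listed, median 0.041, poly-A −1.03). The autophagy receptor Sqstm1 lay at 13.67, 13.72 and 13.50 in chlorothalonil arrays, against 11.97, 11.90 and 11.86 in DMSO arrays (log2 change 1.72, SE 0.10) and Gabarapl1 rose too (1.43 ± 0.10), whereas the lysosomal enzyme Gusb fell (−0.86 ± 0.062).

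Of redox genes built on glutathione and thioredoxin, 21 of 30 tested genes rose and 6 fell (34 listed, median 0.36, poly-A −0.71). Srxn1, sulfiredoxin, lay at 11.22, 11.39 and 11.13 in chlorothalonil arrays, against 8.71, 8.76 and 8.37 in DMSO arrays (log2 change 2.63, SE 0.15, adjusted p = 8.05e-10). Txnrd1, thioredoxin reductase, changed by 1.60 ± 0.079, Sod2 by 1.53 ± 0.052 and Gclm, of glutathione synthesis, by 0.78 ± 0.098. Nqo1, a classical NRF2 target, was not called, with 12.46, 12.63 and 12.49 in chlorothalonil arrays, against 12.50, 12.55 and 12.50 in DMSO arrays (log2 change 0.0084, SE 0.068, adjusted p = 0.919). Glutathione transferases leaned down, as 4 of 18 tested genes rose and 10 fell (26 listed, median −0.36, poly-A −1.44): Gstm2 fell (−1.69 ± 0.090) while Mgst2 (2.47 ± 0.13) and Gsto1 (1.24 ± 0.063) rose. Metal handling genes showed no common direction, as 6 of 28 tested genes rose and 11 fell (34 listed, median −0.11, −0.054 with bounds, poly-A −1.19). Metallothionein Mt1 was at 4.64, 4.64 and 4.32 in chlorothalonil arrays, against 3.23, 3.29 and 3.78 in DMSO arrays (at least 1.45-fold higher). The metal sensor Mtf1 (1.09 ± 0.072), the copper importer Slc31a1 (−0.63 ± 0.056) and the iron importer Slc11a2 (−1.23 ± 0.12) were called, and each had another probe set of opposite sign.

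Most genes listed for amino acid supply, nucleotide synthesis and polyamines rose on the deposited scale. These are transcript levels, and supply itself was not measured. Of amino acid supply genes, 17 of 23 tested genes rose and 5 fell (28 listed, median 0.72, poly-A −0.36). Slc7a11, which imports cystine for glutathione, lay at 7.23, 7.12 and 7.38 in chlorothalonil arrays, against 5.17, 4.88 and 4.50 in DMSO arrays (log2 change 2.39, SE 0.14). The leucine carrier Slc7a5 (1.90 ± 0.10) and Cth, which makes cysteine from cystathionine (1.54 ± 0.081), rose as well. Of nucleotide synthesis genes, 18 of 26 tested genes rose and 4 fell (33 listed, median 0.32, poly-A −0.75), with Prps1 (1.32 ± 0.062), Gmps (1.31 ± 0.058) and Atic (1.14 ± 0.058) of the purine route. Of polyamine genes, 12 of 17 tested genes rose and 1 fell (18 listed, median 0.51, poly-A −0.56); ornithine decarboxylase Odc1 (1.64 ± 0.071), its antizyme inhibitor Azin1 (1.47 ± 0.069, −0.063 in its other probe set) and the catabolic acetyltransferase Sat1 (1.59 ± 0.074) were called. Of NADPH and pentose phosphate genes, 5 of 13 tested genes rose and 4 fell (15 listed, median 0.063, poly-A −1.01): Shmt2 of the mitochondrial folate cycle rose (1.45 ± 0.10), while cytosolic Idh1 (−1.37 ± 0.073) and Nnt (−0.74 ± 0.047) fell. Of glycolysis genes, 7 of 22 tested genes rose and 9 fell (24 listed, median 0.012, poly-A −1.06), with Aldoc, Pfkfb4 (−2.38 ± 0.21) and muscle-type Pfkm (−0.73 ± 0.094) down.

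Lipid synthesis fell under both scalings. Of cholesterol synthesis and uptake genes, 0 of 21 tested genes rose and 21 fell (28 listed, median −1.79, poly-A −2.86). Stard4, a sterol carrier, lay at 8.06, 8.38 and 8.41 in chlorothalonil arrays, against 11.22, 11.28 and 11.10 in DMSO arrays (log2 change −2.92, SE 0.11, adjusted p = 1.97e-11), and Acat2 (−2.36 ± 0.079) and Ebp, a sterol isomerase (−2.10 ± 0.084), fell with it. Of fatty acid synthesis genes, 2 of 19 tested genes rose and 16 fell (25 listed, median −1.42, poly-A −2.50); beside Scd these were Acss2, which activates acetate (−3.27 ± 0.091), the delta-5 desaturase Fads1 (−3.03 ± 0.072) and fatty acid synthase Fasn (−2.53 ± 0.079). Glycerolipid genes were mixed, as 10 of 26 tested genes rose and 7 fell (31 listed, median −0.013, poly-A −1.09): Lpin1, a phosphatidate phosphatase, fell (−2.47 ± 0.15), Chpt1 of phosphatidylcholine synthesis fell (−0.95 ± 0.078) and the lipid droplet protein Plin2 rose (1.29 ± 0.11). Of sphingolipid genes, 8 of 16 tested genes rose and 4 fell (23 listed, median 0.14, poly-A −0.94); the sphingomyelin synthase Sgms2 lay at 6.07, 6.31 and 7.27 in chlorothalonil arrays, against 3.08, 3.13 and 3.27 in DMSO arrays (at least 5.85-fold higher), ceramide synthase Cers2 changed by 0.61 ± 0.064 and acid ceramidase Asah1 by −1.21 ± 0.092. Of peroxisome genes, 5 of 18 tested genes rose and 8 fell (27 listed, median −0.12, poly-A −1.19), where Pex19 (−1.16 ± 0.11), Phyh (−1.16 ± 0.16) and catalase (−0.78 ± 0.098) fell.

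The secretory route showed small changes. Of ER translocation and glycosylation genes, 13 of 38 tested genes rose and 8 fell (39 listed, median 0.024, poly-A −1.05), with Rpn1 (−0.46 ± 0.050) and Ssr3 (−0.52 ± 0.061) lower and Srprb (0.55 ± 0.061) higher. Of coat vesicle genes, 9 of 34 tested genes rose and 14 fell (36 listed, median −0.082, poly-A −1.16), with Copg2 (−0.80 ± 0.078) and Sec24d (−0.56 ± 0.056) lower and Sec23b (0.50 ± 0.050) higher. Of the Rab GTPases, which steer vesicles, 18 of 52 tested genes rose and 19 fell (median −0.064, poly-A −1.14, and 0.033 when probe sets of a gene were averaged). Rab20 rose (2.47 ± 0.20) and Rab30 rose (2.02 ± 0.15), with other probe sets at 0.44 in both; Rab5if, caught by the symbol pattern, is no Rab GTPase (1.20 ± 0.059).

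Growth factor signalling genes included some of the widest changes. Of EGF ligands and feedback genes of the ERK route, 16 of 23 tested genes rose and 4 fell (32 listed, median 0.94, 0.71 with bounds, poly-A −0.14). Etv5, an ETS factor induced by ERK, lay at 7.59, 7.03 and 7.54 in chlorothalonil arrays, against 2.64, 2.83 and 2.57 in DMSO arrays (at least 10.5-fold higher). At 6 h its DMSO arrays averaged 7.68 ± 0.29 (SD, n = 3). Ier2, an immediate early gene (2.34 ± 0.13), and Errfi1, which restrains the EGF receptor (1.28 ± 0.070), rose. Of 41 listed growth factors and cytokines only 15 were tested, and of these 5 of 15 tested genes rose and 7 fell (median −0.36, poly-A −1.43). The chemokine Ccl2 lay at 7.46, 7.76 and 7.69 in chlorothalonil arrays, against 2.49, 2.51 and 2.57 in DMSO arrays (at least 12.4-fold higher). The related Ccl7 was at least 2.66-fold higher, and Spp1, osteopontin, fell (−0.76 ± 0.089). Myc, a growth-promoting transcription factor, rose by 1.48 ± 0.20.

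TGFβ and BMP genes leaned down, as 5 of 33 tested genes rose and 14 fell (40 listed, median −0.21, poly-A −1.28): the inhibitory Smad6 (−1.27 ± 0.10) and Skil (−0.68 ± 0.055) fell and the activin receptor Acvr2a rose (1.47 ± 0.14). Wnt and Notch genes did so more clearly, as 5 of 25 tested genes rose and 16 fell (43 listed, median −0.49, −0.64 with bounds, poly-A −1.56), with the receptors Fzd4 (−1.58 ± 0.085) and Fzd6 (−1.17 ± 0.059) and the ligand Wnt9a (−1.45 ± 0.14). Targets and partners of YAP and SRF were split: 9 of 31 tested genes rose and 11 fell (35 listed, median −0.016, poly-A −1.09), with Tead1, the DNA-binding partner of YAP, down (−1.16 ± 0.067) and Fhl2 up (1.05 ± 0.092). Of nuclear receptors, 4 of 19 tested genes rose and 6 fell (37 listed, median −0.27, poly-A −1.35); the glucocorticoid receptor Nr3c1 fell (−1.22 ± 0.12), and Thrb (at least 3.40-fold higher) and Nr4a3 (at least 2.10-fold higher) left background. The other probe sets of Nr3c1 and Nr4a3 changed by only −0.056 and 0.18. Of receptors with G protein-coupled names, 5 of 23 tested genes rose and 11 fell (78 listed, median −0.31, −0.12 with bounds, poly-A −1.39), with Adgra3 at −0.82 ± 0.087. The pattern also caught Gpr15lg, a ligand and no receptor, which lay at 7.56, 6.84 and 6.95 in chlorothalonil arrays, against 2.18, 2.19 and 2.24 in DMSO arrays (at least 8.67-fold higher).

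Matrix and adhesion genes were mostly lower. Of collagens and other matrix genes, 6 of 32 tested genes rose and 22 fell (49 listed, median −0.57, poly-A −1.65), with the laminin chain Lama5 (−1.49 ± 0.069), the elastic fibre protein Fbln5 (−1.88 ± 0.088) and the basement membrane chain Col4a5 (−1.11 ± 0.054). Of integrins and adhesion molecules, 6 of 25 tested genes rose and 14 fell (35 listed, median −0.23, poly-A −1.31): Itga1, a collagen receptor chain, lay at 7.34, 7.67 and 7.99 in chlorothalonil arrays, against 11.15, 10.88 and 10.87 in DMSO arrays (log2 change −3.30, SE 0.16, adjusted p = 1.19e-10). Ncam1 fell (−2.08 ± 0.095) and Pvr, the poliovirus receptor, an adhesion molecule, rose (2.34 ± 0.12). Of matrix proteases, 4 of 17 tested genes rose and 9 fell (31 listed, median −0.32, −0.25 with bounds, poly-A −1.39): Mmp10, stromelysin-2, lay at 6.10, 6.65 and 6.44 in chlorothalonil arrays, against 2.26, 2.28 and 2.47 in DMSO arrays (at least 5.27-fold higher), Htra1 rose (1.62 ± 0.11) and Mmp11 fell (−1.78 ± 0.11). Of complement and coagulation genes, 8 of 18 tested genes rose and 6 fell (32 listed, median 0.049, poly-A −1.03), with the complement inhibitor Cd55 higher (1.77 ± 0.093) and Cd59b lower (−0.99 ± 0.057). Of antigen presentation and interferon genes, 9 of 26 tested genes rose and 8 fell (40 listed, median −0.00024, poly-A −1.07): Usp18, which damps interferon signalling, rose (2.93 ± 0.19) and the class I genes RT1-S3 (−2.19 ± 0.14) and RT1-M3-1 (−1.27 ± 0.095) fell, in a family whose members share sequence.

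Cytoskeletal, ciliary and cycle genes differed among themselves. Of tubulins and kinesins, 9 of 21 tested genes rose and 5 fell (31 listed, median 0.050, poly-A −1.02); the neuronal Tubb3 lay at 5.73, 6.16 and 6.10 in chlorothalonil arrays, against 2.48, 2.51 and 2.56 in DMSO arrays (at least 3.99-fold higher), the microtubule end protein Mapre1 rose (0.92 ± 0.071) and Klc1 rose (0.83 ± 0.076) with another probe set at −0.030. Of primary cilium genes, 7 of 34 tested genes rose and 18 fell (43 listed, median −0.27, poly-A −1.34), with the transport proteins Ift46 (−0.99 ± 0.086) and Ift80 (−0.86 ± 0.069) and the polycystin channel Pkd2 (−1.26 ± 0.10) lower. Of mitosis genes, 2 of 34 tested genes rose and 27 fell (41 listed, median −0.46, poly-A −1.53), with Cenpf (−2.26 ± 0.099), Top2a (−1.55 ± 0.090) and Nusap1 (−1.48 ± 0.080); the proliferation marker Mki67 changed little (−0.23 ± 0.096, adjusted p = 0.0448). Replication and repair genes leaned the other way, as 22 of 41 tested genes rose and 9 fell (48 listed, median 0.40, poly-A −0.68), with Orc6 (1.15 ± 0.087), Pold2 (1.04 ± 0.086) and Mcm7 (0.94 ± 0.087). Of p53 targets and apoptosis genes, 17 of 28 tested genes rose and 5 fell (46 listed, median 0.48, poly-A −0.60): Mdm2, the ligase that restrains p53, lay at 13.18, 13.25 and 13.05 in chlorothalonil arrays, against 11.61, 11.60 and 11.43 in DMSO arrays (log2 change 1.61, SE 0.080), and Plk2 (1.78 ± 0.078), the caspase activator Diablo (1.17 ± 0.066) and the cycle inhibitor Cdkn1a (0.94 ± 0.091) rose.

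Chromatin and transcription genes gave smaller shifts. Of histone modifiers, 11 of 46 tested genes rose and 17 fell (55 listed, median −0.14, poly-A −1.21), with the deacylase Sirt7 (1.60 ± 0.11), the PRC2 subunit Eed (0.75 ± 0.070) and the demethylase Kdm1a (0.74 ± 0.072) higher. Of histone genes, 5 of 12 tested genes rose and 3 fell (20 listed, median 0.13, 0.054 with bounds, poly-A −0.94), with the linker histone H1f10 at −1.70 ± 0.14. Of zinc finger genes, the largest family tested, 44 of 177 tested genes rose and 63 fell (229 listed, median −0.15, poly-A −1.22), with Zfp622, a factor of ribosome maturation, higher (2.04 ± 0.072) and Zfp704 (−1.88 ± 0.11) and Zfp267 (−1.38 ± 0.098) lower. Of Trim genes, 11 of 24 tested genes rose and 6 fell (median 0.14, 0.010 with bounds, poly-A −0.93, −0.064 with a filter at log2 6), among them Trim26 (1.01 ± 0.11), Trim27 (0.74 ± 0.065) and Trim30d (−1.93 ± 0.18). Of circadian genes, 7 of 16 tested genes rose and 4 fell (22 listed, median 0.14, 0.045 with bounds, poly-A −0.94), with Cry1 (1.03 ± 0.13), Nfil3 (1.05 ± 0.14) and Clock (0.69 ± 0.068, whose other probe sets spanned −0.030 to 1.03).

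**Figure D4:**
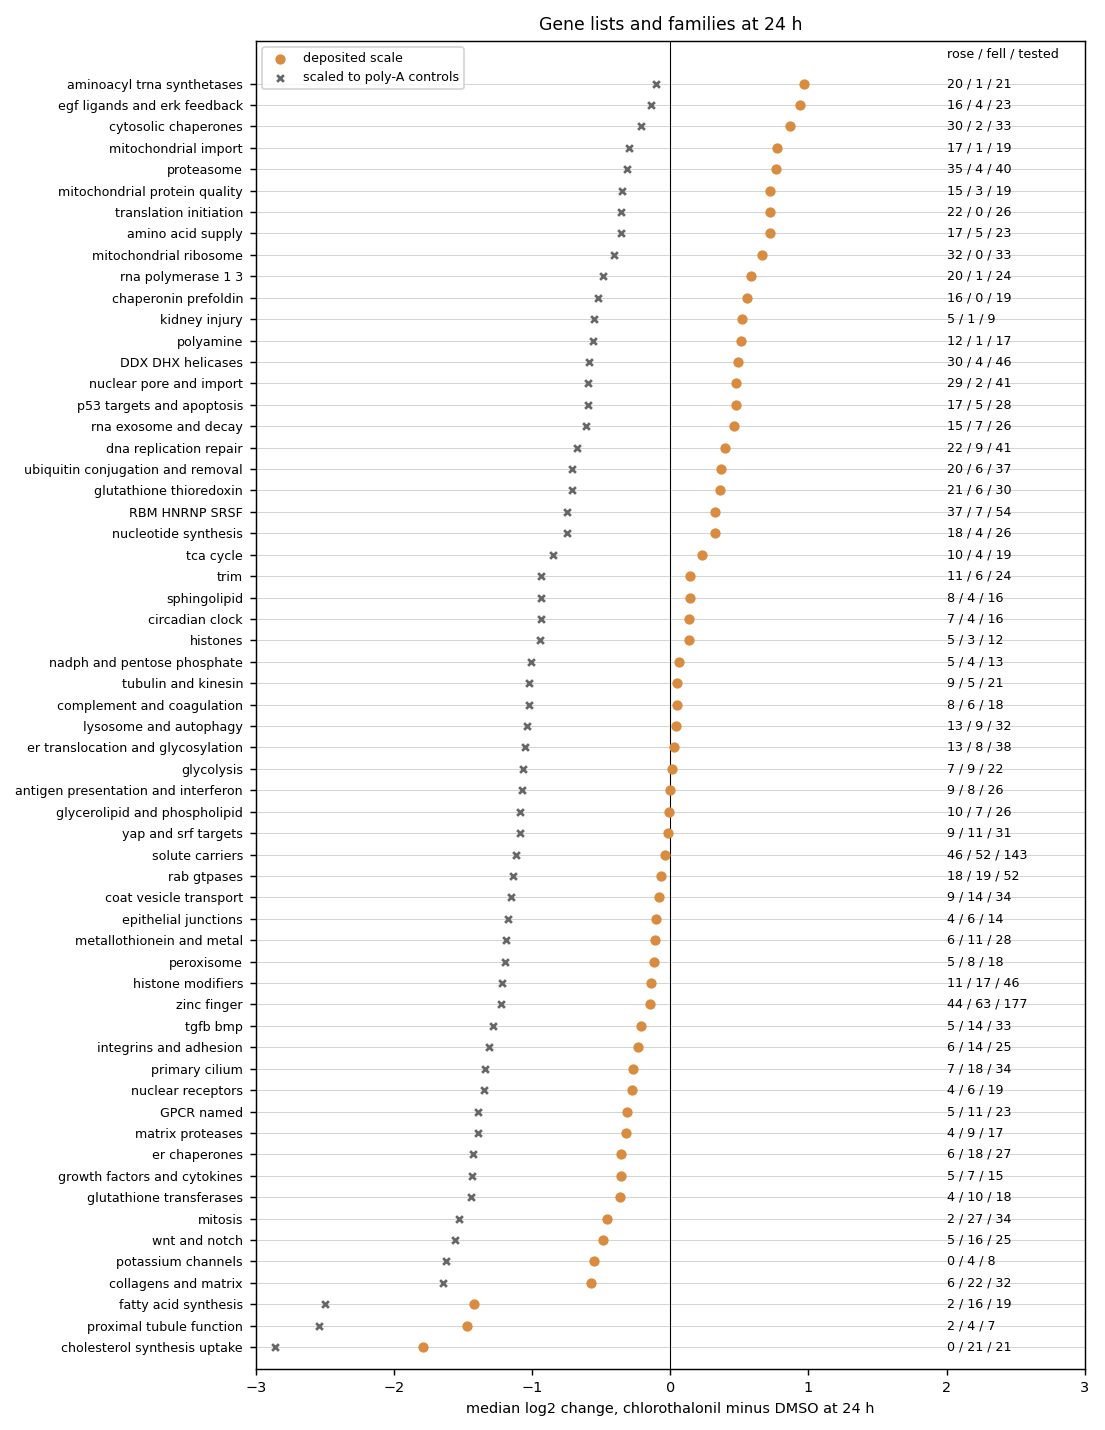
Median log2 change, chlorothalonil minus DMSO at 24 h, of each gene list or family with at least 5 tested genes. Orange points are on the deposited scale and grey crosses on the scale of the poly-A controls, whose overall medians are 0.057 and −1.02; the numbers at the right count genes that rose, that fell and that were tested. Aminoacyl-tRNA synthetases stand highest at 0.97 and cholesterol genes lowest at −1.79.

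The label of proximal tubule was checked against marker genes. Of 34 genes of the proximal tubule list on the array, 6 exceeded log2 4 in any array at 24 h, in both arms. The list also holds Umod, which is counted among the distal nephron markers as well and lay at background. Defining genes such as Lrp2, Cubn, Slc34a1, Slc5a2, Slc22a6 and Aqp1 lay at or below log2 2.77 in all 6 arrays, so the label rests on few of these markers. Of epithelial junction genes 13 of 31 exceeded log2 4 in each arm. Krt8, Ctnna1 and Tjp1 lay at or above 13.06 in all 6 arrays, and Cdh2 between 7.72 and 8.29. In the same arrays Cdh1, Cdh16, Krt18, Krt19, Dsp, Cldn1 and Cldn2 lay at or below log2 3.36. Of the epithelial junction list, 4 of 14 tested genes rose and 6 fell (median −0.10, poly-A −1.18, 0.039 when probe sets were averaged). Among them were Krt8 (0.81 ± 0.084), Ocln (1.33 ± 0.095) and F11r (−0.86 ± 0.069). Of 7 tested proximal tubule genes, 4 fell and 2 rose (median −1.47, poly-A −2.55). Dab2, an endocytic adaptor, lay at 10.18, 10.28 and 10.44 in chlorothalonil arrays, against 12.46, 12.42 and 12.47 in DMSO arrays (log2 change −2.16, SE 0.076, adjusted p = 6.38e-12). The bicarbonate carrier Slc4a4 fell (−2.38 ± 0.088) and gamma-glutamyltransferase Ggt1 rose (1.88 ± 0.11). Among 143 tested solute carriers as a whole, 46 of 143 tested genes rose and 52 fell (median −0.040, poly-A −1.11), with Slc24a3 (−1.76 ± 0.059) and Slc35a2 (−1.47 ± 0.064) lower. Of 8 tested potassium channel genes 4 fell and 0 rose (median −0.55, −0.48 with bounds, poly-A −1.62), Kcnd1 (−2.22 ± 0.15) and Kcnmb4 (−1.06 ± 0.16) among them, and Kcne2 at least 1.89-fold lower. Of 9 tested kidney injury genes 5 rose and 1 fell (20 listed, median 0.52, poly-A −0.55). Ccl2, Cd44 (1.77 ± 0.13) and Lgals3 (0.92 ± 0.051) were among those that rose, and the gene that fell was Spp1 (−0.76 ± 0.089).

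Markers of other cells were mostly at background. Fibroblast markers above log2 4 were 2 of 8 in both arms, Postn (0.54 ± 0.059) and Col3a1 (−1.54 ± 0.13), and Pdgfra, Dcn, Lum and Thy1 lay at or below 2.38; the log2 of their summed level was 11.56 to 11.79 in chlorothalonil arrays and 11.66 to 11.81 in DMSO arrays. Of leukocyte markers, Cd68, also a general lysosomal protein, lay at 4.46, 5.63 and 5.0 in chlorothalonil arrays, against 2.61, 2.60 and 2.55 in DMSO arrays (at least 2.04-fold higher). The pan-leukocyte marker Ptprc stayed between 2.70 and 3.06 in all 6 arrays, and the log2 of the summed leukocyte list was 5.98 to 6.47 in chlorothalonil arrays and 5.48 to 5.79 in DMSO arrays. Endothelial markers reached log2 4 only in Tek in DMSO arrays (not called, limma adjusted p = 0.0539); their log2 sums were 5.05 to 5.21 in chlorothalonil arrays and 5.22 to 5.55 in DMSO arrays. Podocyte markers above log2 4 were Wt1 and Synpo, neither called (−0.14 ± 0.17 and −0.35 ± 0.18), and 0 of 8 distal nephron markers exceeded log2 4.

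Promoter letters were set beside these changes, since genes of a shared response often share short sequences near their start. RefSeq windows of 300 bases on assembly GRCr8, with 250 before and 50 after the start, were at hand for 7724 of the 9149 genes. The 8 motifs in their final forms, searched on both strands, are all given here, and they were picked with results of these data known. Matches are a description of letters, not of bound sites, and no test was run. The AP-1 motif TGANTCA was found in 6.77% of genes that rose 2-fold or more, in 4.36% of genes that fell 2-fold or more and in 355 of all 7724 windows (4.60%). Among changes of 4-fold or more it was found in 22 of 144 genes that rose (15.3%) and 4 of 100 that fell (4.0%). The E-box CACGTG was found in 17.0% of genes that rose 2-fold or more, in 6.70% of genes that fell 2-fold or more and in 10.3% of all windows. The CRE motif TGACGTCA was found in 5.68%, 2.35% and 3.51% of the same groups. The letters TGATGNAA, of the amino acid response element, were found in 7 of 19 aminoacyl-tRNA synthetase genes (36.8%) and in 1.92% of all windows. Among changes of 4-fold or more they were found in 2.08% of genes that rose and 4.0% of genes that fell. The heat shock letters GAANNTTC were found in 9 of 28 cytosolic chaperones (32.1%) and in 5.54% of all windows. Of genes that rose 4-fold or more 6.25% held them, and of genes that fell as far 4.0%. The CCAAT box was found in 14 of 17 cholesterol genes (82.4%) and in 38.8% of all windows. It was also found in 57.9% of aminoacyl-tRNA synthetase genes and 46.4% of cytosolic chaperones, lists that mostly rose. The NRF2 letters TGACNNNGC (19.4% of genes that rose 4-fold or more, 14.7% of all) and the sterol motif TCACNCCAC (0 of 17 cholesterol genes, 1.11% of all) complete the set. The NRF2 letters were also found in 29.4% of cholesterol genes, which fell, and 26.3% of aminoacyl-tRNA synthetase genes. AP-1, CRE and NRF2 motifs start with the same letters and can overlap, and the heat shock and NRF2 letters were shortened after longer forms had been counted.

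The windows of 5 genes with large or representative changes are shown with 1 motif each in capitals, 5′ to 3′ along the gene. Other searched letters were left in lower case. Hsph1 also holds the E-box and CCAAT letters in 4 places, and Yars1 and Ddx18 hold CCAAT letters too. Sprr1a also holds the NRF2 and amino acid response letters. Sprr1a (chr2:180752576-180752875 on the minus strand) holds AP-1 letters in 2 places and left background. Hsph1 (chr12:10427118-10427417 on the plus strand) holds the heat shock letters, Yars1 (chr5:146819913-146820212 on the plus strand) the amino acid response letters, Ddx18 (chr13:35295923-35296222 on the minus strand) the E-box, and Tm7sf2 (chr1:212789492-212789791 on the minus strand) CCAAT letters in 2 places.
Sprr1a: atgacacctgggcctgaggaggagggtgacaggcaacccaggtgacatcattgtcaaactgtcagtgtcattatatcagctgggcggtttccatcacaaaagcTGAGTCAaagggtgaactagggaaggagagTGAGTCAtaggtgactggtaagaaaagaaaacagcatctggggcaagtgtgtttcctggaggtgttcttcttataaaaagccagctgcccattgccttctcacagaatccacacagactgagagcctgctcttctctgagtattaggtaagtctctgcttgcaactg
Hsph1: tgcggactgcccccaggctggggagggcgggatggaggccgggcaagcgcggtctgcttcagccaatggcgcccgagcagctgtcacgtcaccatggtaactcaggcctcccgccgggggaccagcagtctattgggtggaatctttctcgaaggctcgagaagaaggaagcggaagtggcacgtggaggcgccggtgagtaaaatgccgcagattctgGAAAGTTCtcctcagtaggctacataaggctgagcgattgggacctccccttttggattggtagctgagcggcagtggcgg
Yars1: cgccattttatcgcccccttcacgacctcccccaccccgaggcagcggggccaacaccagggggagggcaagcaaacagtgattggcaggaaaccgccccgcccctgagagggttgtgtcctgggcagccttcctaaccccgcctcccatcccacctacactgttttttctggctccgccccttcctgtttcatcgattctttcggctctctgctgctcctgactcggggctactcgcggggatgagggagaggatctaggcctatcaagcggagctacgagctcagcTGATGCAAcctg
Ddx18: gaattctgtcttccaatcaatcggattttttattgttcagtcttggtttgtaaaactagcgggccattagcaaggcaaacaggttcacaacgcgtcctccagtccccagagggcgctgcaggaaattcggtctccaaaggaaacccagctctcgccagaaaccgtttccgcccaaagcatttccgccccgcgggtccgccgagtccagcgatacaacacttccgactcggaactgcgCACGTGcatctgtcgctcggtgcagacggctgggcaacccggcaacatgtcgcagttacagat
Tm7sf2: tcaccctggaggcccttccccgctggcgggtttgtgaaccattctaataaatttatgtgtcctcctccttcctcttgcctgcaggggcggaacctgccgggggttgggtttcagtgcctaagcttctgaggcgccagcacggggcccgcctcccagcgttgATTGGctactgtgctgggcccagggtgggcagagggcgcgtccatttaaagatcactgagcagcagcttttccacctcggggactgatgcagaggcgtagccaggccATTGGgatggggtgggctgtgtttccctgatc
Levels of these genes are given above, except that Ddx18 rose with 9.98, 9.88 and 9.82 in chlorothalonil arrays, against 8.42, 8.62 and 8.35 in DMSO arrays. Hsph1, Yars1 and Ddx18 were above background in DMSO arrays and rose, Sprr1a was at background in DMSO arrays, and Tm7sf2 fell.

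The response at 24 h was compared with the responses at 6 h and 72 h through the difference of the treatment effects in the same model. The effect at 24 h differed from that at 6 h for 5761 genes (63.0%), with 3623 higher (39.6%) and 2138 lower (23.4%) at 24 h, and from that at 72 h for 5274 (57.6%), with 2723 higher (29.8%) and 2551 lower (27.9%). Of the 1709 genes that changed by 2-fold or more at 24 h, 1226 (71.7%) had a chlorothalonil mean nearer to the DMSO mean of 6 h than the DMSO mean of 24 h was; over all 9149 genes that share was 61.8%. The share describes levels and shares the DMSO arrays of 24 h with the change itself.

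The following genes were taken from those with at least 1 array above log2 4 in each of the 4 groups compared, so genes such as Sprr1a and Hspa1a, at background in DMSO arrays at both 6 h and 24 h, are not among them although their differences are larger. In the 4 genes of this kind whose effect grew most after 6 h, the vehicle level was lower at 24 h than at 6 h. Ifi27l2b changed by 0.78 at 6 h, 4.87 at 24 h and 7.57 at 72 h; its levels at 24 h were 12.25 ± 0.12 in chlorothalonil arrays and 7.38 ± 0.24 in DMSO arrays, and at 6 h 10.92 ± 0.15 in chlorothalonil arrays and 10.14 ± 0.13 in DMSO arrays (SD, n = 3). The effect at 24 h exceeded that at 6 h by 4.09 (SE 0.23, adjusted p = 3.56e-09). Abhd2 changed by 1.43 at 6 h, 5.04 at 24 h and 3.62 at 72 h and Bcat1 by 0.91 at 6 h, 4.14 at 24 h and 4.35 at 72 h. In both, chlorothalonil arrays at 24 h were nearer to their 6 h level than DMSO arrays were to theirs. Coa7, a mitochondrial assembly factor, changed by −0.37 at 6 h, 2.53 at 24 h and −0.053 at 72 h, and its other probe set by 0.093 at 24 h.

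In the 4 genes with the most negative difference from 6 h, among those with at least 1 array above log2 4 in each group, the vehicle level was higher at 24 h than at 6 h. Tmem176b stood at 4.85 ± 0.59 in chlorothalonil arrays and 3.33 ± 0.80 in DMSO arrays at 6 h and at 4.46 ± 0.35 in chlorothalonil arrays and 8.47 ± 0.13 in DMSO arrays at 24 h, a difference of effects of −5.52 (SE 0.46, adjusted p = 1.42e-07). Only its DMSO mean at 24 h was far from log2 4, so the size of this difference rests on values near background. Timp3, an inhibitor of matrix proteases, changed by 1.99 at 6 h, −2.28 at 24 h and 0.75 at 72 h, and Kitlg, the ligand of the KIT receptor, by 1.36 at 6 h, −2.76 at 24 h and −2.66 at 72 h. Both were higher than vehicle at 6 h and lower at 24 h.

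Against 72 h the 4 widest negative differences under the same limit belonged to genes with a vehicle peak at 24 h. Ropn1l stood at 6.61 ± 0.62 in chlorothalonil arrays and 10.67 ± 0.23 in DMSO arrays at 24 h, at 6.13 ± 0.40 in chlorothalonil arrays and 5.44 ± 0.20 in DMSO arrays at 6 h and at 7.72 ± 0.49 in chlorothalonil arrays and 5.55 ± 0.35 in DMSO arrays at 72 h, a 24 h minus 72 h difference of −6.23 (SE 0.43, adjusted p = 2.38e-08). Pimreg (−0.52 at 6 h, −3.70 at 24 h and 1.86 at 72 h), Aldoc (−0.028 at 6 h, −3.52 at 24 h and 1.78 at 72 h) and Rnf157 (0.11 at 6 h, −3.02 at 24 h and 2.11 at 72 h), a ubiquitin ligase, share this course: lower than vehicle at 24 h and higher at 72 h. Hspa4, an HSP110 family chaperone, went the other way with 1.39 at 6 h, 1.26 at 24 h and −3.13 at 72 h and a difference of 4.39 (SE 0.25, adjusted p = 2.82e-09). Dhrs4, a carbonyl reductase (1.10 at 6 h, 1.64 at 24 h and −2.24 at 72 h), and the mitochondrial hydrolase Abhd11 (1.73 at 6 h, 1.91 at 24 h and −1.57 at 72 h) behaved alike in sign. H3c1 changed by 2.96 at 6 h, 3.72 at 24 h and 0.46 at 72 h, so its excess over vehicle was present at 6 h and 24 h. The 5S control probe set, with changes of 3.86, 5.66 and 3.90 at 6, 24 and 72 h, also stood highest at 24 h (differences of 1.80 and 1.76, limma adjusted p = 0.0104 and 0.0127).

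**Figure D5:**
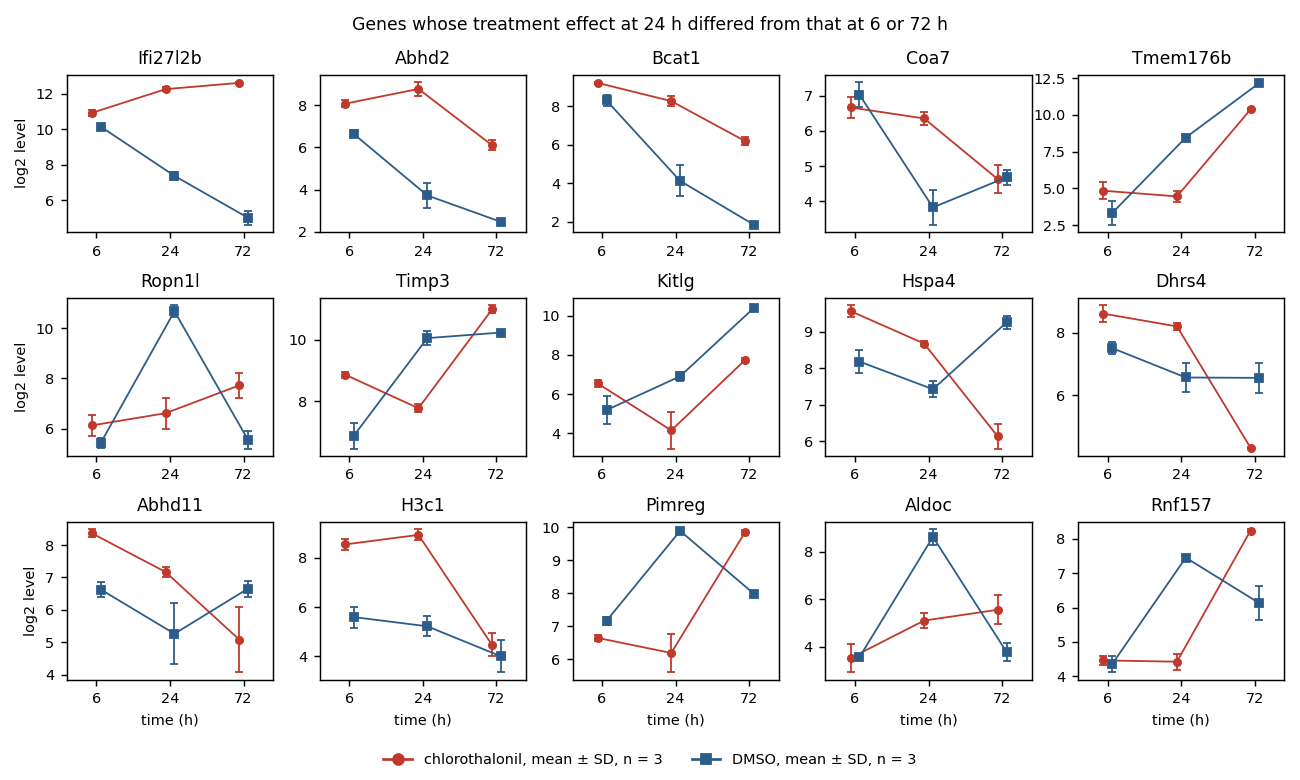
Mean log2 level with SD (n = 3) at 6, 24 and 72 h of the genes whose treatment effect at 24 h differed most from that at 6 h or 72 h, among genes with at least 1 array above log2 4 in each group compared. Red circles are chlorothalonil and blue squares DMSO; each panel has its own vertical scale. Ropn1l, Pimreg, Aldoc and Rnf157 peak at 24 h in DMSO, where chlorothalonil arrays are lower.

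Of the 236 genes named by rule, 231 were called, and their arms did not overlap. Over all genes 40.4% lay apart upward and 32.5% downward. Most of the rules pick genes by their call or p, so the count follows largely from the selection. The largest adjusted p among the named genes called was 0.0448, for Mki67. Gapdh, a common reference gene, was not called, at 15.16, 15.15 and 15.14 in chlorothalonil arrays, against 15.17, 15.18 and 15.11 in DMSO arrays (log2 change −0.0046, SE 0.063). For 18 of the named genes, Ddit3, Stard4, Slc7a5, Tubb3, Dab2, Ggt1, Cd44, Fasn, Mt1 and Nqo1 among them, the probe set may hybridise to similar transcripts as well, by its type.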

How the data were processed

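Total RNA of 18 NRK-52E cultures was hybridised to Affymetrix rat arrays after biotin labelling, per the labels' protocols. The authors deposited 1 table of log2 values, for which the submitters' processing notes name GCRMA; which release and options were used is not given in the sources used here. In its standard form GCRMA subtracts a modelled background and brings arrays to a common distribution, which would remove a change common to most transcripts and leaves unexpressed genes in a narrow low band.

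Probe sets with 1 symbol in the platform annotation (20832 of 31099, 20764 updated through Entrez identifiers with the RefSeq table of GRCr8) were kept where they exceeded log2 4 in at least 3 of 18 arrays. The one with the highest mean stood for its gene, which gave 9149 genes, 462 of them on probe sets that can bind related transcripts. Of 2598 genes with several probe sets, 1878 were called at any size, and 364 of these had another probe set of opposite sign. Among them 455 changed 2-fold or more, and 38 of the 455 had another probe set of opposite sign. limma 3.58.1 in R 4.3.3 fitted 6 group means to all 18 arrays (12 residual and 2.76 prior degrees of freedom), with two-sided tests and Benjamini-Hochberg adjustment over all genes. The design text names no test.

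Genes were named by rule. The first took the 12 highest and 12 lowest changes with at least 1 array above log2 4 in each arm. It also required a call and arms apart. Further rules took the 10 largest bounds per direction, the 3 smallest p of each list and a fixed set of 20 genes. The last took the 4 most extreme differences of effect per direction and time. These came from called genes with at least 1 array above log2 4 in each of the 4 groups. Of the fixed set, Havcr1 and Actb were among those not tested, and some genes are not reported here. The comparison, the genes, lists and motifs were chosen with earlier results of these data known. Lists were described by counts and medians without a set test. Single values per array used exact permutation tests.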

Additional observations from a re-analysis of the deposited data

Results flagged for a closer look

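Treatment effects at 24 h that differed between times by limma's test of the difference itself, with Benjamini-Hochberg adjustment over 9149 genes, included the following. Over 6 h, the effect at 24 h was higher by 4.09 (SE 0.23, adjusted p = 3.56e-09) for Ifi27l2b, by 3.61 (SE 0.33, adjusted p = 3.8e-07) for Abhd2, by 3.23 (SE 0.39, adjusted p = 5.38e-06) for Bcat1 and by 2.90 (SE 0.36, adjusted p = 6.39e-06) for Coa7. It was lower, with differences of −5.52 (SE 0.46, adjusted p = 1.42e-07) for Tmem176b, −4.75 (SE 0.43, adjusted p = 3.2e-07) for Ropn1l, −4.27 (SE 0.23, adjusted p = 2.28e-09) for Timp3 and −4.12 (SE 0.53, adjusted p = 8.73e-06) for Kitlg. Against 72 h it was higher by 4.39 (SE 0.25, adjusted p = 2.82e-09) for Hspa4, 3.88 (SE 0.32, adjusted p = 1.55e-07) for Dhrs4, 3.48 (SE 0.61, adjusted p = 0.0002) for Abhd11 and 3.26 (SE 0.45, adjusted p = 2.09e-05) for H3c1. Differences against 72 h were negative for Ropn1l at −6.23 (SE 0.43, adjusted p = 2.38e-08), Pimreg at −5.56 (SE 0.27, adjusted p = 7.88e-10), Aldoc at −5.30 (SE 0.45, adjusted p = 1.61e-07) and Rnf157 at −5.12 (SE 0.27, adjusted p = 1.53e-09).

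Probe sets outside the gene tests also differed between the arms. The 5S ribosomal RNA control had a log2 change of 5.66, and the mean of the spiked poly-A controls differed by 1.07 on the log2 scale. Of 3646 probe sets without a gene symbol that passed the filter, 2184 were called by limma (59.9%), 659 higher and 1525 lower. Changes of 4-fold or more were called for 76 of them upward and 103 downward.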

How the results depend on the processing

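Scaling each array to the spiked poly-A controls changed the picture most. It left 256 genes higher and 6263 lower, against 3575 and 2843 on the deposited scale, and the differences of effect called fell to 1491 (24 h minus 6 h) and 1469 (24 h minus 72 h). This scaling rests on 1 value per array: leaving out each 24 h array in turn, chosen after seeing the data, gave 277, 190 and 216 genes higher without chlorothalonil replicates 1, 2 and 3, and 680, 201 and 166 without DMSO replicates 1, 2 and 3. The same fits gave 4929, 6502 and 5808 genes lower, and 4912, 6505 and 7475. The median change was −0.59 without DMSO replicate 1 and −1.29 without DMSO replicate 3. Under it 33 list medians above 0 turned negative. In 5 the deposited median was within 1 SD of the medians of single arrays, and the other 28 became −0.21 for cytosolic chaperones, −0.52 for chaperonin and prefoldin, −0.35 for mitochondrial protein quality, −0.30 for mitochondrial import, −0.41 for mitochondrial ribosome, −0.11 for aminoacyl-tRNA synthetases, −0.49 for RNA polymerases I and III, −0.35 for translation initiation, −0.60 for nuclear pore and import, −0.61 for RNA exosome and decay, −0.71 for ubiquitin conjugation and removal, −0.31 for proteasome, −0.94 for sphingolipid, −0.85 for the TCA cycle, −0.71 for glutathione and thioredoxin, −0.75 for nucleotide synthesis, −0.36 for amino acid supply, −0.56 for polyamine, −1.03 for lysosome and autophagy, −0.14 for EGF ligand and ERK feedback, −1.02 for tubulin and kinesin, −0.94 for circadian clock, −0.68 for DNA replication repair, −0.55 for kidney injury, −0.60 for p53 targets and apoptosis, −0.58 for DDX and DHX helicases, −0.93 for Trim genes and −0.75 for RBM, HNRNP and SRSF genes. Of the 236 named genes, 32 turned negative under it, namely Pfdn2 −0.0057, Cct8 −0.29, Hspe1 −0.054, Timm17a −0.14, Timm50 −0.16, Eif2s1 −0.017, Exosc7 −0.17, Uchl5 −0.18, Srprb −0.53, Sec23b −0.57, Cers2 −0.46, Idh3b −0.060, Fhl2 −0.021, Krt8 −0.27, Mapre1 −0.15, Klc1 −0.25, Clock −0.38, Cry1 −0.046, Nfil3 −0.027, Eed −0.32, Kdm1a −0.33, Pold2 −0.033, Mcm7 −0.13, Lgals3 −0.16, Postn −0.54, Trim27 −0.33, Trim26 −0.064, Hnrnpdl −0.16, Rbm8a −0.21, Rbm22 −0.26, Gclm −0.29 and Cdkn1a −0.13, 50 more lost their call and 149 kept direction and call. The cause was not tested.

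The other settings were the 24 h arrays alone, quantile normalization, a filter at log2 6, no filter, the mean of a gene's probe sets, a replicate block, array weights, an intensity trend, and leaving out each 24 h array. They called 6039 to 6472 genes, with 53.9% to 57.6% of the calls higher. A filter at log2 6 removes dim genes by construction and left 49 genes with DMSO at background and 28 with chlorothalonil at background; a background of log2 3.5 left 25 genes with chlorothalonil at background. List medians near 0 changed sign for Trim genes with that filter (−0.064), and for epithelial junctions (0.039) and Rab GTPases (0.033) with averaged probe sets. The replicate block called 6409 genes, and 97.3% of the 6418 were among them. Treated and DMSO arrays of 1 number correlated at 0.125, −0.0097 and 0.215 in their deviations at 24 h, so the numbers were not taken to pair the samples.

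The number of arrays limits precision. On simulated arrays with 9149 genes, 200 of them changed, 64% of changes of 0.5 and 90% of changes of 1 on the log2 scale were recovered. There were 6 false calls. The simulation drew independent noise, without a shift shared by the genes of an array. In the data 70.1% of genes were called, so these rates do not carry over to this comparison.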
